A study of Mus musculus with 14 samples.

Results

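Mouse embryonic stem cells carrying mir-290_mCherry and mir-302_eGFP, a pair of fluorescent reporters of microRNA clusters, were compared after 5 days in L-proline or in FGF and activin, and only cells positive for both reporters entered the libraries. Of 37620 genes in the count files, the 13167 genes with a mean of at least 1 CPM (counts scaled to a fixed library total) over the L-Pro day 5 and F/A day 5 libraries are described, and 22519 genes had any count in the pair. At the limit, P2rx3 was kept with 16 counts in L-Pro and 53 in F/A, and Esam was left out with 47 and 27. The L-Pro culture held serum and LIF with 1 mM L-proline. The F/A culture was N2B27, a serum-free medium, with 20 ng/ml activin A and basic FGF, whose amount in these libraries the labels do not give. Both were made from C57BL/6 dual reporter cells, which the labels describe as kept in serum and LIF with 100 µM vitamin C and both were plated at low density. The untreated day 0 library and an F/A day 3 library are shown beside the pair, and both are likewise double-positive. Each group is 1 library, so no difference in this double-positive experiment has a replicate check, and log2 ratios of L-Pro over F/A are given with 95% exact counting intervals, which cover counting error only. Serum, LIF, the basal medium and the added factors all differed between the cultures, and their parts cannot be told apart. Similar media were also profiled in 10 libraries of the dual reporter culture without a stated sort, in 5 media with 2 libraries each, after extraction with another kit. In that replicated experiment cells spent 5 days in L-Pro with LIF, at a dose not given, or in F/A with 20 ng/ml activin A and 12 ng/ml basic FGF, and it gives a separate readout of each gene. The labels do not say whether its replicates were separate cultures, so its p-values measure only the spread between these libraries.

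Naive embryonic stem cells resemble the preimplantation epiblast and depend on LIF and STAT3 signalling for a transcription factor network that includes Esrrb, Klf4 and Zfp42. Activin and FGF instead hold primed epiblast stem cells, which resemble the epiblast around gastrulation and can start genes of the primitive streak, the structure that gives rise to mesoderm and endoderm. The mir-290 cluster is a hallmark of the naive state, whereas the mir-302 cluster rises as cells leave it, so cells that carry both signals are taken to lie between the states. The labels do not say whether the reporter line is 1 clone or how the double-positive cells were separated, and the reporter transcripts themselves were not analysed here.

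The reporters stand for microRNAs many of whose 3p arms share much of their seed, the stretch at bases 2 to 8 that pairs with targets. They are shown because the reporter pair defines the cells compared. RefSeq (GRCm38.p6) gave 11 mature 3p sequences of these loci, 5 of which hold the seed AAGUGCU. The seed is in capitals. Not printed are the other mir-290 cluster arms found, among them miR-292b-3p and miR-293-3p with the unlike seeds AGAGCCC and GUGCCGC. The mir-290 cluster arms found lie on chromosome 7 between 3218638 and 3220837, and the mir-302 cluster arms on chromosome 3 between 127545275 and 127545687.
mmu-miR-291a-3p: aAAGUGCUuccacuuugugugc
mmu-miR-294-3p: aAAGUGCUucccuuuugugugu
mmu-miR-295-3p: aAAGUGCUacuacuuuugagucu
mmu-miR-302b-3p: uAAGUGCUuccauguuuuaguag
mmu-miR-302d-3p: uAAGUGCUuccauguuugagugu
mmu-miR-302c-3p: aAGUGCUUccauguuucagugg
In the mir-302c arm of this table the same letters begin 1 base earlier, so its seed reads AGUGCUU. The libraries hold long RNA and few reads fell on the hairpins. Over the 7 mir-290 cluster hairpin genes with a count there were 145 counts at day 0, 18 in L-Pro, 52 in F/A day 3 and 20 in F/A day 5, a log2 ratio of -0.38 (-1.39 to 0.61) for the pair. Over the 5 mir-302 cluster genes there were 46, 40, 50 and 36 counts, a log2 ratio of -0.08 (-0.76 to 0.61). At this depth no difference between the pair was detectable for either cluster. AU018091, a gene near the mir-290 cluster, stood at 146 CPM at day 0, 34.4 in L-Pro, 6.55 in F/A day 3 and 2.71 in F/A day 5. Its log2 ratio was 3.67 (3.36 to 3.99), and in the replicated experiment it was 2.29 (SE 0.43, adjusted p = 0.0102 by edgeR's quasi-likelihood test), or 2.93 without F/A replicate 1 and 1.68 without F/A replicate 2. Larp7, in whose intron the mir-302 cluster lies, differed little, at 102 CPM in L-Pro and 132 in F/A.

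The L-Pro library held 39711061 counts and the F/A day 5 library 33162689, and day 0 and F/A day 3 held 34149515 and 35626817. The scaling factors of the 4 libraries lay between 0.982 and 1.03. The L-Pro and F/A day 5 libraries showed 20965 and 20594 genes with a count, and mitochondrial genes took 2.97% and 2.87% of their counts. In the replicated experiment the first F/A library had 6937945 mapped fragments, against 18424697 in the second and 21607289 and 26354444 in L-Pro/LIF.

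Most genes were close between the double-positive cells of the 2 media: the median log2 ratio was 0.03, and 11520 of the 13167 genes (87.5%) lay within 2-fold. A further 1647 genes (12.5%) were at least 2-fold apart, of which 932 (7.08%) were higher in L-Pro and 715 (5.43%) higher in F/A. At 4-fold, 484 genes (3.68%) remained, 285 (2.16%) higher in L-Pro and 199 (1.51%) higher in F/A. The median width of the counting interval was 0.27 on the log2 scale, and for 1073 genes the whole interval lay beyond 2-fold. Read against day 0, the 932 genes higher in L-Pro held 447 whose F/A level was at least 2-fold below day 0 and 420 whose L-Pro level was at least 2-fold above it. Of the 715 genes higher in F/A, 518 were at least 2-fold above day 0 in F/A and 144 at least 2-fold below day 0 in L-Pro. Over all 13167 genes, 21.6% in L-Pro and 22.1% in F/A were at least 2-fold above day 0, and 10.0% and 11.1% at least 2-fold below it. L-Pro was also set against the earlier F/A library. Of the 932 genes, 420 (45.1%) were at least 2-fold higher in L-Pro than in F/A day 3 as well, and 199 of the 715 (27.8%) at least 2-fold lower. Over all described genes these shares were 10.3% and 4.71%. The 932 and 715 genes were picked by the same L-Pro and F/A day 5 values, so larger shares among them are partly built in.

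**Figure D1:**
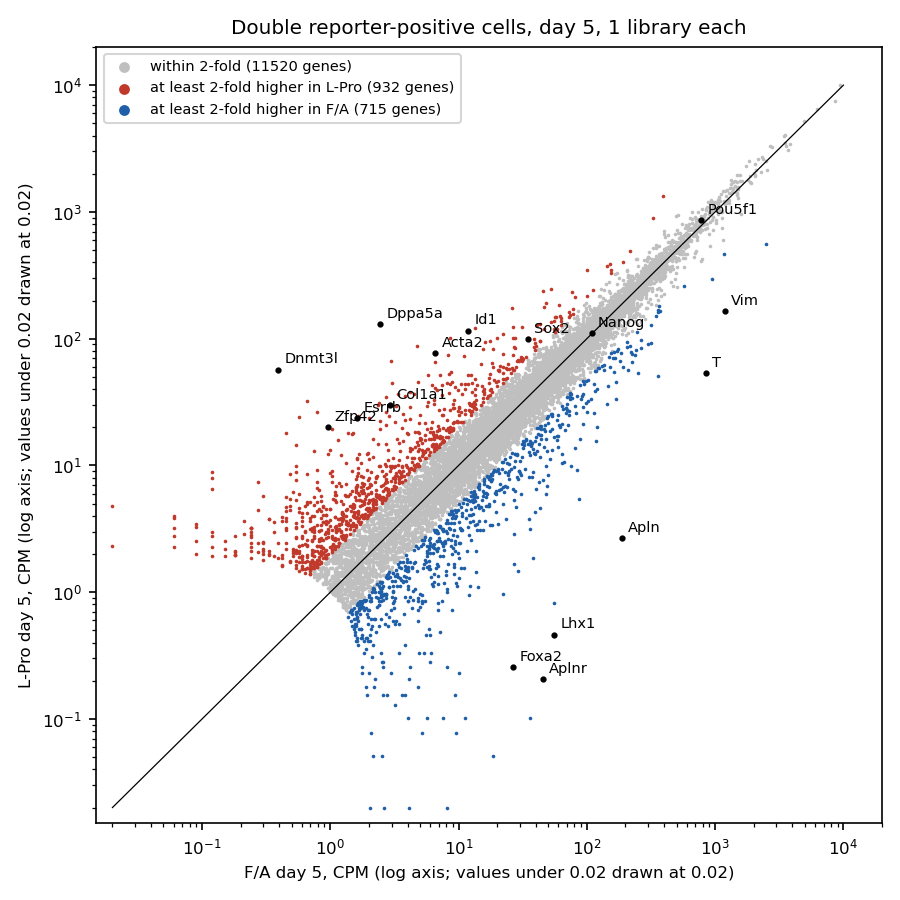
Level of each of the 13167 genes in F/A day 5 (horizontal, CPM, log axis) and L-Pro day 5 (vertical, CPM, log axis), 1 library each; red points are at least 2-fold higher in L-Pro and blue points at least 2-fold higher in F/A. Pou5f1 lies near the line of equality, Dnmt3l and Dppa5a lie far above it, and T, Lhx1, Foxa2, Apln and Aplnr lie far below it.

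The replicated experiment was tested with edgeR's quasi-likelihood test and Benjamini-Hochberg adjustment over 16033 genes, and 3529 (22.0%) differed between L-Pro/LIF and F/A at an adjusted p under 0.05. Among the 13001 of the described genes that could be tested, 3110 (23.9%) were called, 1516 (11.7%) higher in L-Pro/LIF and 1594 (12.3%) higher in F/A. Of 921 tested genes at least 2-fold higher in double-positive L-Pro cells, 464 (50.4%) were called higher in L-Pro/LIF and 8 (0.869%) higher in F/A. Of 695 tested genes at least 2-fold higher in double-positive F/A cells, 363 (52.2%) were called higher in F/A and 14 (2.01%) higher in L-Pro/LIF. Among genes within 2-fold, 9.12% and 10.7% were called in the respective directions. Past 4-fold the shares called the same way were 69.5% and 72.4%. Across the 13001 genes, which are not independent replicates, Pearson's r between the log2 values of the 2 experiments was 0.636 and Spearman's rho 0.489. The test was also refitted 4 times, each time without 1 library of the replicated pair. The call of a single gene whose adjusted p is printed held in all 4 refits unless another number of refits is given, and beside each count of called list members stands the number that held in all 4. Those refits changed the number of calls over all genes to 752 without L-Pro/LIF replicate 1, 1183 without L-Pro/LIF replicate 2, 1598 without F/A replicate 1 and 6296 without F/A replicate 2. Fitted on these 4 libraries alone, in place of all 10, the test called 729 genes, and of 187 named genes 42 lost their call.

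Genes of naive pluripotency were mostly higher in double-positive L-Pro cells. Of the 19 list members above the level limit, 14 were at least 2-fold higher in L-Pro and none in F/A, and the median log2 ratio was 2.41 against 0.03 over all genes. The replicated experiment called 16 of the 19 higher in L-Pro/LIF and none higher in F/A, 14 of the 16 in all 4 refits. Both double-positive populations nonetheless lay far under day 0: 16 of the 19 genes were at least 2-fold below it in L-Pro and 19 in F/A, against 10.0% and 11.1% of all described genes. Zfp42, a zinc finger factor also called Rex1 and a standard naive marker, stood at 421 CPM at day 0, 20.1 in L-Pro, 16.5 in F/A day 3 and 0.963 in F/A day 5. Its level in L-Pro was thus close to that of F/A at day 3, and F/A day 5 was the lowest library, with a log2 ratio of 4.39 (3.88 to 4.94). Its replicated values were 62.4 and 45.2 CPM in L-Pro/LIF and 1.39 and 1.90 in F/A, groups that did not overlap, with a log2 fold change of 4.98 (SE 0.23, edgeR adjusted p = 8.37e-06). Esrrb, an orphan nuclear receptor of the naive network, showed the same order, with 653 CPM at day 0, 23.7 in L-Pro, 11.1 in F/A day 3 and 1.62 in F/A day 5. The log2 ratio of Esrrb was 3.87 (3.47 to 4.29) in double-positive cells and 2.52 (SE 0.27, edgeR adjusted p = 0.000829) in the replicated experiment, where counts of unique hits in place of estimated counts gave 3.76. Dppa2 and Dppa4, partner chromatin proteins, had log2 ratios of 5.62 and 4.20. For Dppa2 the 4 libraries read 149 at day 0, 32.5 in L-Pro, 103 in F/A day 3 and 0.662 CPM in F/A day 5, so F/A kept it at day 3 and not at day 5. Dppa3, a maternal factor that guards imprints, was at 8.00 CPM in L-Pro and 0.120 in F/A, from 312 and 4 counts, and its log2 ratio of 6.06 has a wide interval (4.68 to 7.94).

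Not all of the naive network followed. Klf4, a LIF-responsive factor, stood at 225 CPM at day 0, 25.8 in L-Pro, 3.06 in F/A day 3 and 27.3 in F/A day 5, a log2 ratio of -0.08 (-0.21 to 0.05). Nanog, the homeobox factor that stabilises pluripotency, read 407, 111, 206 and 109 CPM in the same order, with a log2 ratio of 0.03 (-0.03 to 0.10). Both intervals include 0, so no difference was detectable at this depth, while the replicated experiment called both higher in L-Pro/LIF. There Klf4 had a log2 fold change of 2.67 (SE 0.24, edgeR adjusted p = 0.000365) and Nanog of 1.06 (SE 0.14, edgeR adjusted p = 0.00211). From counts of unique hits the value of Klf4 was smaller, 1.16 (edgeR adjusted p = 0.00534). Whether these differ between the experiments was not tested, since the double-positive pair has no replicates. Klf5 and Tfcp2l1, further factors of the network, had log2 ratios of 0.86 and 1.57 in double-positive cells and were not called in the replicated experiment.

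The factors shared by naive and primed cells were closer. Of 14 members of the core pluripotency list, 4 were at least 2-fold higher in L-Pro, none in F/A, and 10 lay within 2-fold, with a median log2 ratio of 0.22. The replicated experiment called 7 toward L-Pro/LIF and 1 toward F/A, of which 5 and 0 held in all refits. Pou5f1, which encodes Oct4 and marks pluripotent cells of either state, stood at 1166 CPM at day 0, 859 in L-Pro, 958 in F/A day 3 and 782 in F/A day 5, and it was not called in the replicated experiment (log2 fold change 0.21, SE 0.17, edgeR adjusted p = 0.367). Sox2, its partner, was at 99.7 CPM in L-Pro and 34.6 in F/A day 5 after 492 at day 0 and 126 in F/A day 3. The log2 ratio of Sox2 was 1.53 (1.43 to 1.62), and the replicated value was 2.19 (SE 0.20, edgeR adjusted p = 0.000341). Gdf3, a TGF-beta family ligand of pluripotent cells, was at 74.6 CPM in L-Pro, near its day 0 and F/A day 3 levels of 85.5 and 86.3, and at 8.30 in F/A day 5. Dppa5a, an RNA-binding protein of early embryos, was higher in L-Pro by a log2 ratio of 5.74 (5.43 to 6.08), at 131 against 2.44 CPM. Lin28a and Lin28b, RNA-binding repressors of let-7 microRNAs, were a little higher in F/A, with log2 ratios of -0.13 and -0.52.

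In double-positive cells DNA methylation factors lay within 2-fold apart from Dnmt3l. Of 11 members, 10 lay within 2-fold, as did 87.5% of all described genes, and the median log2 ratio was 0.37. The replicated experiment called 2 members toward L-Pro/LIF and 1 toward F/A, of which 1 and 0 held in all refits. Dnmt3l encodes a cofactor of the de novo DNA methyltransferases without catalytic activity of its own. It stood at 253 CPM at day 0, 56.9 in L-Pro, 81.4 in F/A day 3 and 0.391 in F/A day 5, where 13 counts were left. Its log2 ratio of 7.18 (6.41 to 8.10) was the highest of the genes chosen for their ratio, and the replicated experiment gave 6.75 (SE 0.20, edgeR adjusted p = 1.08e-06), from 42.9 and 51.7 CPM in L-Pro/LIF and 0.507 and 0.400 in F/A. Dnmt3b, a de novo enzyme, and Dnmt1, which maintains methylation, had log2 ratios of 0.47 and 0.12.

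Germline genes whose promoters are known to be held silent by methylation were mostly higher in L-Pro than in F/A day 5, but lower than in F/A day 3. Of 11 members, 8 were at least 2-fold higher in L-Pro and 2 in F/A, with a median of 2.77, and the replicated experiment called 8 higher in L-Pro/LIF, 6 of them in all refits, and 1 in F/A, which did not hold in all. Both day 5 populations were well below day 0 in most of them: 9 of 11 genes were at least 2-fold lower in L-Pro and 10 in F/A, against 10.0% and 11.1% of all described genes. Against F/A day 3 the L-Pro library was at least 2-fold lower for 10 of the 11 genes and higher for none. Over all described genes 4.71% and 10.3% lay on these sides. Ddx4, an RNA helicase of germ cells, read 39.5 CPM at day 0, 25.3 in L-Pro, 92.6 in F/A day 3 and 3.70 in F/A day 5. Rpl10l, a ribosomal protein retrogene of the testis, read 102, 6.49, 12.3 and 0.120 CPM in that order. Mael, a piRNA pathway protein, had a log2 ratio of 4.24 (3.34 to 5.32), and Tex19.1, which restrains retrotransposons, of 1.82 (1.41 to 2.25). Sycp1, a synaptonemal complex protein, was level at a log2 ratio of -0.10, and the exceptions higher in F/A were Tdrkh and Stag3, at -1.67 and -1.50. None of the 5 matched genes of the 2-cell-like list reached the level limit.

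Markers of the primed epiblast leaned to F/A, though not together. Of 21 members, 9 were at least 2-fold higher in F/A, none in L-Pro, and 12 lay within 2-fold, with a median of -0.76. The replicated experiment called 6 higher in F/A and 2 higher in L-Pro/LIF, and only 2 of these calls, both higher in F/A, held in all 4 refits. Fgf5, the FGF ligand that marks the postimplantation epiblast, stood at 0.178 CPM at day 0, 20.0 in L-Pro, 78.0 in F/A day 3 and 121 in F/A day 5. L-Pro was therefore far above day 0 but below both F/A libraries, and the log2 ratio was -2.59 (-2.70 to -2.48). Fgf5 was also lower in L-Pro/LIF of the replicated experiment, by a log2 fold change of -0.95 (SE 0.21, edgeR adjusted p = 0.0217), a call that held in 1 of 4 refits, the adjusted p reaching 0.145. Otx2, a homeobox factor that helps establish the primed state, was at 22.4 CPM in L-Pro and 43.0 in F/A (log2 ratio -0.94) and was not called in the replicated experiment. Nkx1-2, a homeobox gene of the caudal epiblast, had 32 counts in L-Pro and 1834 in F/A, a log2 ratio of -6.07 (-6.62 to -5.57). Cdh2, which encodes N-cadherin, was at 1.21 CPM at day 0, 45.6 in L-Pro, 39.8 in F/A day 3 and 170.1 in F/A day 5. Dnmt3b, another primed marker, lay the other way with 674 CPM in L-Pro and 487 in F/A.

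Mesendoderm genes, those of the primitive streak and its descendants, set the pair apart evenly. Of 17 members, 15 were at least 2-fold higher in F/A and none in L-Pro, all 17 log2 ratios were below 0, and the median was -2.53. The replicated experiment called 13 higher in F/A and none in L-Pro/LIF, 8 of them in all refits. In F/A the high levels came late: 15 of the 17 genes were at least 2-fold higher in F/A day 5 than in F/A day 3, as were 9.98% of all described genes. Against F/A day 3 the L-Pro library was at least 2-fold higher for 6 genes and lower for 4, with 10.3% and 4.71% of all described genes on these sides. T, the streak factor Brachyury, stood at 0.711 CPM at day 0, 53.1 in L-Pro, 20.1 in F/A day 3 and 848 in F/A day 5. L-Pro thus exceeded F/A day 3 but lay far below F/A day 5, with a log2 ratio of -4.00 (-4.06 to -3.93). The replicated libraries held T at 39.8 and 46.7 CPM in L-Pro/LIF and 308 and 345 in F/A, and its log2 fold change was -2.92 (SE 0.14, edgeR adjusted p = 9.93e-06). Eomes, the T-box factor of early streak and definitive endoderm, showed a smaller gap, with 5.16 CPM at day 0, 25.2 in L-Pro, 12.8 in F/A day 3 and 72.9 in F/A day 5 (log2 ratio -1.53).

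Genes of the anterior streak and its derivatives were nearly absent from L-Pro. Lhx1, a LIM homeobox factor of anterior mesendoderm, had 18 counts in L-Pro and 1855 in F/A, or 0.462 and 55.8 CPM, after 0 at day 0 and 0.737 in F/A day 3. Its log2 ratio was -6.92 (-7.68 to -6.25), and the replicated value was -8.61 (SE 0.95, edgeR adjusted p = 0.00143). Its L-Pro/LIF libraries stood at 0 and 0.158 CPM, far under the 45.7 and 25.3 of the F/A libraries. Without L-Pro/LIF replicate 1 the value was -7.69, and without L-Pro/LIF replicate 2, which leaves the library at 0, it was -12.32, a fitted value that depends on edgeR's own prior count. Foxa2, a forkhead factor of endoderm and node, had 10 counts in L-Pro and 881 in F/A, a log2 ratio of -6.69 (-7.76 to -5.81). Gsc, the organizer homeobox gene goosecoid, and Cer1, a secreted Nodal and BMP antagonist, had ratios of -5.44 (-6.58 to -4.49) and -6.94 (-9.23 to -5.38). Msgn1, a factor of presomitic mesoderm, had no count in L-Pro and 272 in F/A. Set against a floor of 3 counts it was 106-fold higher in F/A (log2 ratio -6.73), and its counting interval ended at a log2 ratio of -6.42. Mixl1, a streak homeobox gene, was at 4.59 CPM in L-Pro and 43.0 in F/A (log2 ratio -3.23), and the replicated value was -4.02 (SE 0.38, edgeR adjusted p = 0.000442). Wnt3, the ligand that starts the streak, was an exception at 48.9 and 57.9 CPM (log2 ratio -0.24), far above its 0.0889 at day 0 in both. Hhex, of anterior endoderm, was also within 2-fold, at -0.50.

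**Figure D2:**
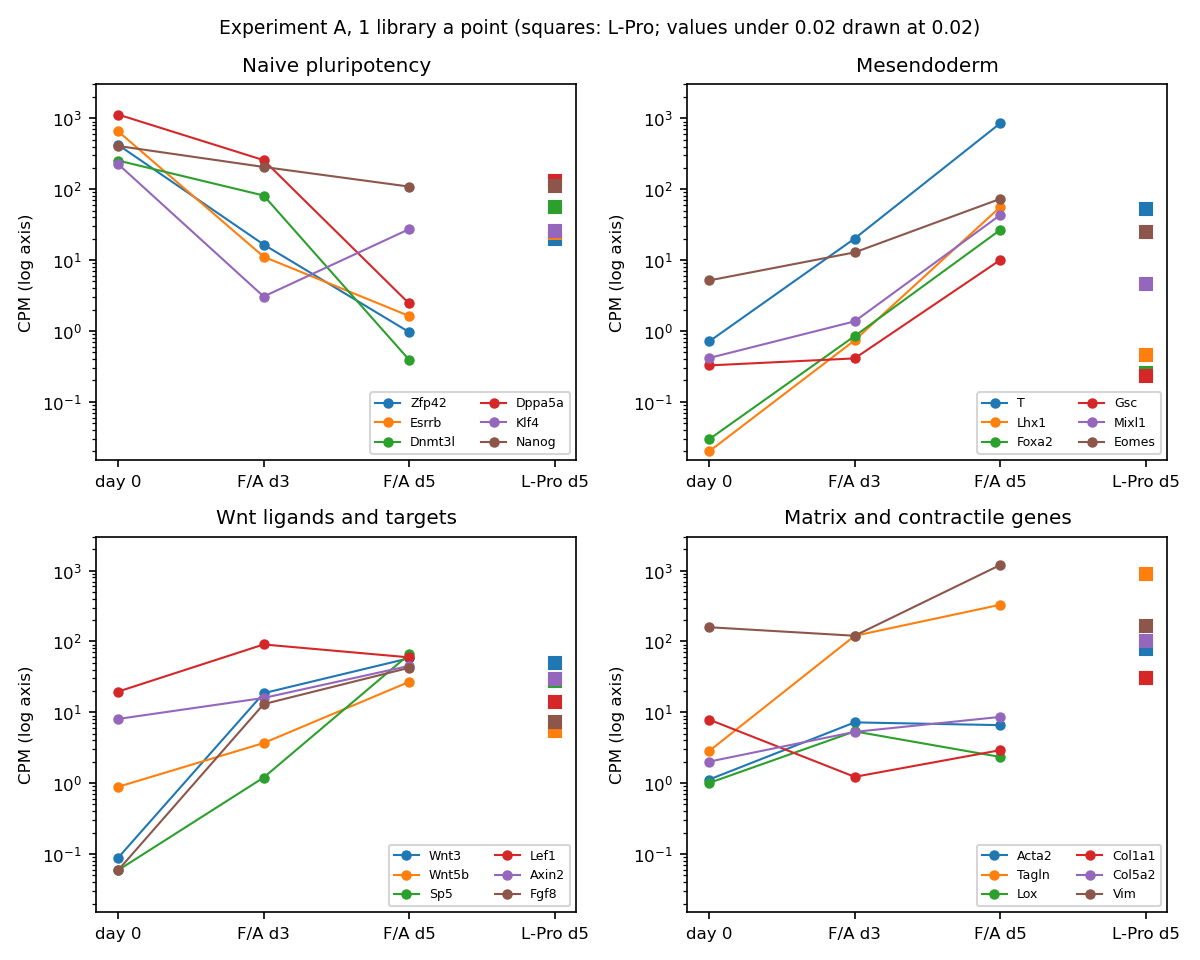
Levels (CPM, log axis) of 24 genes in the 4 double-positive libraries, 1 library a point; lines join the day 0 library to the F/A libraries of both times, and squares are L-Pro day 5. Among the naive genes shown, Klf4 and Nanog lie at the same level in L-Pro and F/A day 5, and the mesendoderm genes reach their highest level in F/A day 5.

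Genes of the Wnt pathway and its targets were also all lower in L-Pro. None of the 18 members had a ratio above 0, 12 were at least 2-fold higher in F/A, and the median was -2.07, with 12 called higher in F/A and none in L-Pro/LIF in the replicated experiment (5 in all refits). The list shares T and Wnt3 with the mesendoderm list. Among ligands, Wnt5a was at 1.54 CPM in L-Pro and 10.4 in F/A, and Wnt8a, expressed in the posterior epiblast, was at 8.05 and 37.2 after 75.8 in F/A day 3. Wnt8a was not called in the replicated experiment (log2 fold change -0.07, SE 0.22, edgeR adjusted p = 0.824). Among feedback inhibitors and nuclear effectors, Dkk1, a secreted antagonist, had a log2 ratio of -4.19 (-5.12 to -3.38). Lef1, a transcription factor that binds beta-catenin, was at 19.6 CPM at day 0, 14.0 in L-Pro, 90.6 in F/A day 3 and 59.6 in F/A day 5. Sp8, a zinc finger target, had a log2 ratio of -2.62 (-2.82 to -2.42). Axin2 and Sp5, widely used readouts of the pathway, differed less, with log2 ratios of -0.63 (-0.75 to -0.52) and -1.24 (-1.35 to -1.13). Tcf7 and Ccnd1 lay within 2-fold at -0.23 and -0.19.

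Promoters of this list were searched for the TCF/LEF letters CTTTGAT or CTTTGAA on both strands, since its members lay on the same side together. RefSeq windows of 300 bases, 250 before to 50 after a start, were found for 12 of the 18 genes, and 6 genes held a match, namely T, Sp5, Sp8, Dkk1, Wnt5b and Wnt11. Among the described genes with a window, 6.89% held one. By window the counts were 6 of 22 for the list and 5.73% for the described genes, against 8.65% of all 32851 windows. A match is a description of letters and not a bound site. The promoters of T and Sp5 are shown, with the match in capitals. The window of T is chr17:8434173-8434472 (GRCm38.p6, plus strand), and its match is the reverse complement. The window of Sp5 is chr2:70474673-70474972 (plus strand).
T: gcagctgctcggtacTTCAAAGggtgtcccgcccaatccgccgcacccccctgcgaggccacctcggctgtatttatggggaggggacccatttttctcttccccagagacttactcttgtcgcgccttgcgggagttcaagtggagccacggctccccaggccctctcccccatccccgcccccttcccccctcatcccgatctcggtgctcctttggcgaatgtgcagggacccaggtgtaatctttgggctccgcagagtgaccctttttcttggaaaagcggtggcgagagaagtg
Sp5: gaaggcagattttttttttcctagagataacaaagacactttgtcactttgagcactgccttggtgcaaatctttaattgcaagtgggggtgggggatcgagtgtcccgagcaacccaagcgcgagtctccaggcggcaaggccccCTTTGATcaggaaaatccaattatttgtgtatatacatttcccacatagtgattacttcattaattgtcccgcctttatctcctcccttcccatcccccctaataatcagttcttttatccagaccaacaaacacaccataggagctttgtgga
The same search with TGATGNAAT, the ATF4 letters, in the ATF4 list gave 3 of 25 genes (Gars, Nupr1 and Aars) against 0.554% of described genes, and TCACNCCAC, a sterol response sequence, gave 0 of 15 sterol genes against 1.47%.

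Signalling components and targets differed gene by gene. In the Nodal and activin pathway list, 3 of 15 genes were at least 2-fold higher in L-Pro and 3 in F/A. Nodal itself was at 119.8 CPM in L-Pro and 148 in F/A (log2 ratio -0.30), and its coreceptor Tdgf1 at 925 and 775. There were 6 replicated calls in the list toward L-Pro/LIF and 4 toward F/A, 3 and 2 of them in all refits. Nodal was called there in the other direction, with a log2 fold change of 0.64 (SE 0.12, edgeR adjusted p = 0.0100, called in 2 of 4 refits), and Tdgf1 had 1.60 (SE 0.20, edgeR adjusted p = 0.0018). Of the inhibitors, Fst, an activin-binding protein, was at 2.07 CPM at day 0, 51.0 in L-Pro, 72.4 in F/A day 3 and 358 in F/A day 5, a log2 ratio of -2.81 (-2.88 to -2.74). Lefty2, a Nodal antagonist, lay the other way, with 47.9, 122, 42.1 and 13.4 CPM in the same order and a log2 ratio of 3.18 (3.04 to 3.32). Its relative Lefty1 was within 2-fold in double-positive cells (103 and 85.5 CPM), whereas the replicated experiment gave 4.41 (SE 0.16, edgeR adjusted p = 3.15e-06). Of the 15 Nodal and activin targets, 6 were higher in F/A and 2 in L-Pro. The 6 were Cer1, Lhx1, Gsc, Cyp26a1, Mixl1 and Eomes, which are streak or endoderm genes, and the 2 were Lefty2 and Smad7, a feedback inhibitor with a log2 ratio of 1.54.

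In double-positive cells the Id genes, direct targets of BMP signalling, were higher in L-Pro, and the BMP ligands Bmp2, Bmp4 and Bmp7 higher in F/A. Of 12 members, 5 were at least 2-fold higher in L-Pro and 3 in F/A. Id1, an inhibitor of bHLH factors, was at 18.9 CPM at day 0, 116 in L-Pro, 12.3 in F/A day 3 and 11.9 in F/A day 5, so L-Pro stood above all others. For Id1 the log2 ratio was 3.29 (3.14 to 3.44), and the replicated value was 2.03 (SE 0.20, edgeR adjusted p = 0.000499). Id2 and Id3 had log2 ratios of 1.98 and 2.10, and the 5 were completed by Id4 and Msx2. Bmp2 was at 1.67 CPM in L-Pro and 8.21 in F/A. Id1, Id3 and Id4 were called higher in L-Pro/LIF of the replicated experiment, 2 of them in all refits, and Bmp2 alone higher in F/A, in 3 of 4 refits. Id2 was not called (log2 fold change 0.41, SE 0.18, edgeR adjusted p = 0.127), nor were Msx2, Bmp7 and Bmp4, whose value lay on the other side at 0.13.

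LIF receptor and STAT3 genes leaned to L-Pro, the medium with LIF, and the list shares Klf4, Gbx2 and Tfcp2l1 with the naive list. Of 15 members, 7 were at least 2-fold higher in L-Pro and none in F/A, the median was 0.85, and the replicated experiment called 10 toward L-Pro/LIF and 2 toward F/A, of which 6 and 1 held in all refits. Icam1, an adhesion molecule induced by STAT3, was at 69.3 CPM at day 0, 82.5 in L-Pro, 12.9 in F/A day 3 and 15.6 in F/A day 5. Bcl3, an NF-kappaB cofactor, had a log2 ratio of 3.13 (2.62 to 3.69), and Stat3 itself of 1.05 (0.96 to 1.15). Socs3, the feedback inhibitor of LIF signalling, was nonetheless level, with 145 CPM at day 0, 28.9 in L-Pro, 7.92 in F/A day 3 and 28.0 in F/A day 5. In the replicated experiment it was 1.61 (SE 0.16, edgeR adjusted p = 0.00058). Il6st, the gp130 coreceptor, was lower in L-Pro at -0.59 and Junb higher at 0.64.

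In the FGF and ERK list 5 of 23 members were at least 2-fold higher in L-Pro and 4 in F/A, while the replicated experiment called 4 toward L-Pro/LIF and 10 toward F/A. Only 2 of these calls, both toward L-Pro/LIF, held in all 4 refits. Fgf4, the autocrine ligand of stem cells, was at 241 CPM at day 0, 43.9 in L-Pro, 76.7 in F/A day 3 and 8.57 in F/A day 5, a log2 ratio of 2.36 (2.17 to 2.54). Fgf8, a streak ligand, lay the other way at -2.53 (-2.72 to -2.34). The immediate early gene Fos was at 54.0 CPM in L-Pro and 250.1 in F/A, and was not called in the replicated experiment (log2 fold change -0.79, SE 0.27, edgeR adjusted p = 0.0688). The ERK feedback genes Dusp6 and Etv5 were within 2-fold, at -0.66 and 0.25. Retinoic acid response genes were mostly lower in L-Pro in double-positive cells, with 6 of 11 members at least 2-fold higher in F/A and 1 in L-Pro and a median of -1.14. Their median in the replicated experiment lay on the other side, at 0.19, and 4 were called toward F/A and 1 toward L-Pro/LIF, of which 1 and 0 held in all refits. Cyp26a1, which degrades retinoic acid, was at 1.87 CPM in L-Pro and 38.2 in F/A, against 0.819 in F/A day 3. Meis2, a homeobox gene, was instead highest in F/A day 3, at 85.6 CPM, against 27.0 in F/A day 5 and 1.67 in L-Pro. Of 6 caudal and Hox genes above the level limit, 5 were at least 2-fold higher in F/A and Cdx4 was higher in L-Pro.

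Epithelial genes were modestly higher in L-Pro. Of 23 members, 20 had a ratio above 0, 4 were at least 2-fold higher in L-Pro and none in F/A, and the median was 0.45. The replicated experiment called 8 higher in L-Pro/LIF and none in F/A, 2 of them in all refits. Cdh1, which encodes E-cadherin, was at 510.1 CPM at day 0, 1175 in L-Pro, 636 in F/A day 3 and 919 in F/A day 5, a log2 ratio of 0.35. Its replicated value lay on the other side and was not called (log2 fold change -0.43, SE 0.30, edgeR adjusted p = 0.314). Krt18, a simple epithelial keratin, was at 3.41, 348, 16.5 and 156 CPM, so both day 5 populations far exceeded day 0. Mesenchymal genes were split, with 6 of 14 at least 2-fold higher in F/A and 2 in L-Pro, and the replicated experiment called 5 and 2 in these directions, 4 and 1 in all refits. Vim, which encodes the intermediate filament vimentin, was at 159 CPM at day 0, 165 in L-Pro, 120.3 in F/A day 3 and 1196 in F/A day 5. The L-Pro level was near that of day 0 and F/A day 5 was alone high, with a log2 ratio of -2.86 (-2.90 to -2.82) and a replicated value of -2.50 (SE 0.13, edgeR adjusted p = 1.26e-05). Zeb2, a repressor of epithelial genes, and Twist1 had ratios of -2.63 and -1.98, and the 2 higher in L-Pro were Lgals1 and Mmp14.

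Some contractile genes and fibrillar collagens were higher in L-Pro in double-positive cells. Of 18 actin and YAP-responsive genes 7 were at least 2-fold higher in L-Pro, none in F/A, and 11 lay within 2-fold, 5 of these with a ratio below 0. All 18 were at least 2-fold above day 0 in both media, as were 17.9% of all described genes. Replicated calls went both ways, 3 of the 18 toward L-Pro/LIF and 2 toward F/A, 1 and 0 of them in all refits. Acta2, smooth muscle actin, was at 1.13 CPM at day 0, 77.2 in L-Pro, 7.21 in F/A day 3 and 6.59 in F/A day 5. Its log2 ratio was 3.55 (3.35 to 3.76) and the replicated value 1.44 (SE 0.22, edgeR adjusted p = 0.00398). Cnn1 and Myl9, further contractile genes, had log2 ratios of 1.91 and 1.48 and were not called in the replicated experiment, and Tpm1 and Flna were within 2-fold. Among 24 collagen and matrix genes, 4 were at least 2-fold higher in L-Pro and 3 in F/A, while 5 were called toward L-Pro/LIF and 4 toward F/A in the replicated experiment, 2 and 0 in all refits, with a median of 0.00072. Col5a2, a fibrillar collagen chain, was at 2.02 CPM at day 0, 101 in L-Pro, 5.30 in F/A day 3 and 8.60 in F/A day 5, and Col1a1 was at 7.88, 30.0, 1.23 and 2.92. Col5a2 was called in the replicated experiment, at 2.01 (SE 0.28, edgeR adjusted p = 0.0029), and Col1a1 was not, at 0.98 (SE 0.39, edgeR adjusted p = 0.0991). Tnc, the matrix protein tenascin C, lay the other way at -2.41 (-2.69 to -2.14).

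Fibroblast markers were higher in L-Pro as well, and the lists share Acta2, Tagln and collagens. Of 13 fibroblast list members, 8 were at least 2-fold higher in L-Pro and 1 in F/A, and their summed level was 1127 CPM in L-Pro, 397 in F/A day 5, 193 in F/A day 3 and 47.0 at day 0. Tagln, an actin-binding protein, alone made up 892 CPM in L-Pro and 329 in F/A. Lox, which crosslinks collagen, had a log2 ratio of 3.68 (3.35 to 4.03) and was not called in the replicated experiment (edgeR adjusted p = 0.0913). Thy1, a surface marker of fibroblasts, was at 6.64 and 1.59 CPM, and the defining markers Lum, Postn and Fap had 7, 4 and 2 counts in L-Pro and 4, 6 and 0 in F/A. Of the 13, 2 were called in the replicated experiment, both higher in L-Pro/LIF and 1 of them in all refits. The part of other cells in these ratios was not tested, and in bulk RNA fewer cells of a type and less RNA per cell cannot be told apart. Of 10 primitive endoderm markers 4 were at least 2-fold higher in F/A, namely Sox17, Gata6, Pdgfra and Cubn, and none in L-Pro. The list was split, with 5 ratios above 0, 5 below it and a median of -0.22. Its members Sparc and Apoe lay toward L-Pro within 2-fold, at 0.64 and 0.60, while Afp and Ttr had no count in either library. The replicated experiment called 5 of the 10 toward F/A and 1 toward L-Pro/LIF, 1 each way in all refits. The neuroectoderm list had 6 members, of which Tubb3, Nkx6-2 and Neurod1 were at least 2-fold higher in L-Pro and none in F/A, and its most abundant gene Nes was level at 793 and 752 CPM. In the replicated experiment the median of this list lay on the other side, at -0.16. There 1 member was called each way, neither in all refits, and Tubb3 and Neurod1 were not called, at 0.0019 and 0.40. Of 6 blood, endothelial and cardiac genes, 4 were higher in L-Pro and 1 in F/A, led by Tek, the angiopoietin receptor, at 17.8 and 1.47 CPM. The replicated experiment called 2 of them higher in L-Pro/LIF, 1 in all refits, and none in F/A. Of 7 trophectoderm genes 3 were higher in L-Pro and 1 in F/A, and Elf5 and Tpbpa, defining markers of that lineage, had 0 counts in L-Pro and 4 and 0 in F/A. Replicated calls of trophectoderm genes were 2 toward L-Pro/LIF and 1 toward F/A, of which 2 and 0 held in all refits. Over all described genes, 7.08% were at least 2-fold higher in L-Pro and 5.43% in F/A.

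**Figure D3:**
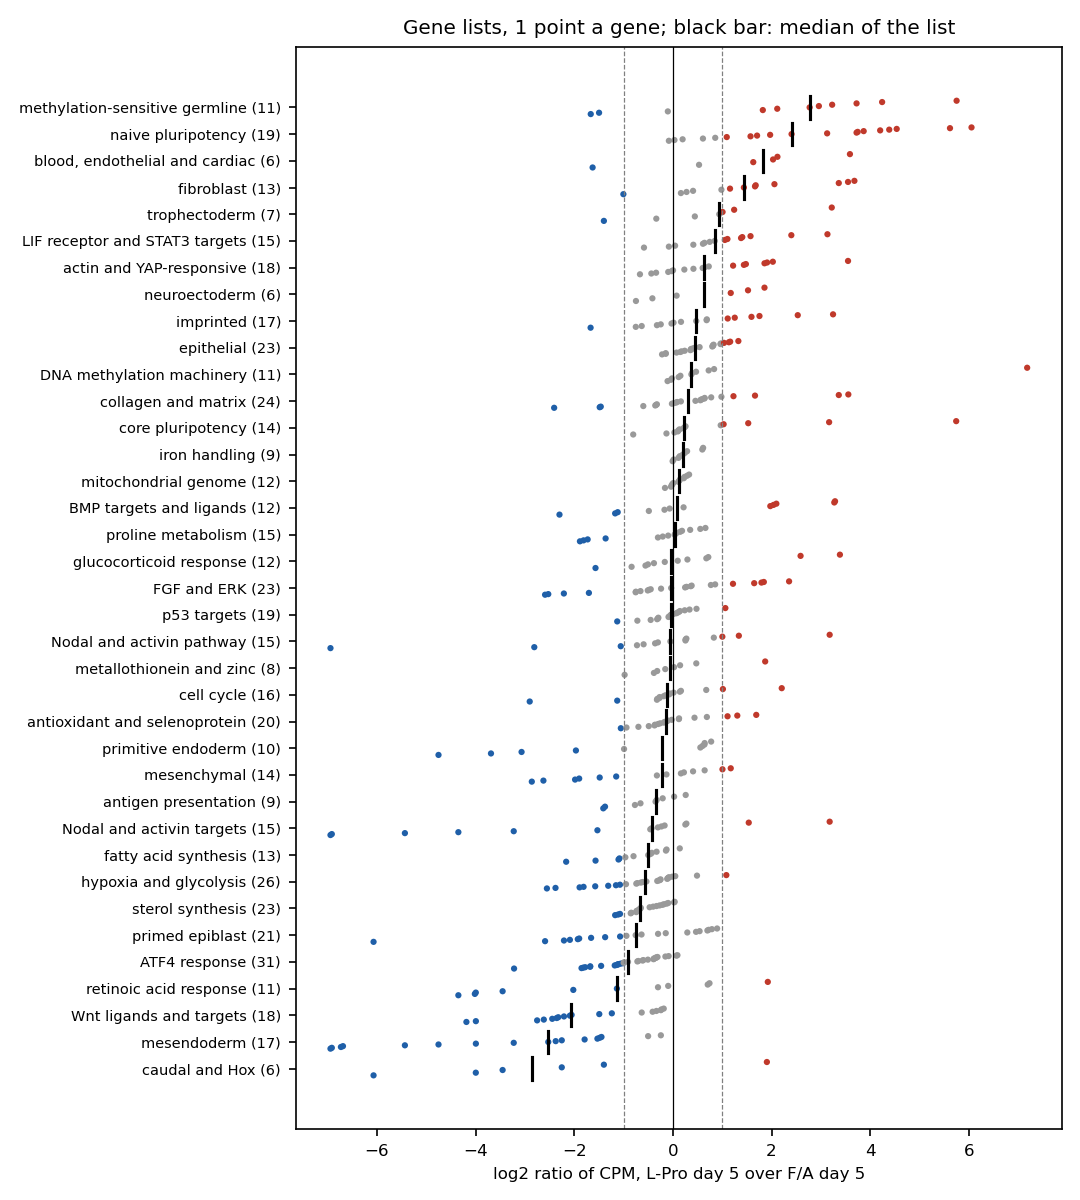
Log2 ratio of L-Pro over F/A at day 5 (horizontal, double-positive cells, 1 library each) for the members of each gene list, 1 point a gene, with the number of members in brackets and the list median as a black bar; red and blue points are at least 2-fold higher in L-Pro and F/A. The mesendoderm and Wnt lists lie wholly below 0, and the naive list has a median of 2.41.

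The enzymes of proline synthesis Aldh18a1, Pycr1 and Oat were lower in L-Pro. Cells build proline from glutamate through Aldh18a1 and Pycr1 and from ornithine through Oat. Of 15 members of the proline list, 4 were at least 2-fold higher in F/A, none in L-Pro, and the median was 0.04. Aldh18a1, which takes the first step, was at 127 CPM at day 0, 44.2 in L-Pro, 78.4 in F/A day 3 and 114 in F/A day 5, and L-Pro was the lowest of the 4. Its log2 ratio was -1.36 (-1.45 to -1.28), and the replicated value was -0.94 (SE 0.10, edgeR adjusted p = 0.00096). Pycr1 was at 36.1 CPM at day 0, 5.93 in L-Pro, 18.5 in F/A day 3 and 19.6 in F/A day 5, again lowest in L-Pro. The replicated value was -1.11 (SE 0.19, edgeR adjusted p = 0.00762), called in 3 of 4 refits with an adjusted p of up to 0.0551. Oat had a log2 ratio of -1.89 (-1.96 to -1.82) and a replicated value of -0.98 (SE 0.15, edgeR adjusted p = 0.00485). Pycrl, a further reductase, had a log2 ratio of 0.18. The breakdown enzyme Prodh was level at 0.08, and Slc38a2, an amino acid transporter that carries proline, was at 522 CPM in L-Pro and 331 in F/A. P4ha1, a prolyl hydroxylase subunit that also belongs to the hypoxia list, was at 17.0 and 59.5 CPM.

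Genes of the wider ATF4 response, which is induced when amino acids run short, among other conditions, were lower in L-Pro as well. Of 31 members, 29 had a ratio below 0, 13 were at least 2-fold higher in F/A and none in L-Pro, and the median was -0.91. The replicated experiment called 16 higher in F/A, 7 in all refits, and none in L-Pro/LIF. Against day 0, 11 members were at least 2-fold lower in L-Pro and 1 in F/A, beside 10.0% and 11.1% of all described genes. Pck2, the mitochondrial PEP carboxykinase, was at 96.2 CPM at day 0, 17.0 in L-Pro, 39.1 in F/A day 3 and 58.5 in F/A day 5. Chac1, a glutathione-degrading enzyme, and Trib3, a pseudokinase, had log2 ratios of -1.85 (-2.10 to -1.61) and -1.82 (-2.03 to -1.62). Vldlr, a lipoprotein receptor, had the lowest ratio, -3.22 (-3.46 to -2.99), and the aminoacyl-tRNA synthetases Gars and Aars lay within 2-fold at -0.39 and -0.38.

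Sterol and fatty acid synthesis genes were lower in L-Pro by small steps. Of 23 sterol genes, 21 had a ratio below 0, with a median of -0.66, but 3 were past 2-fold, all higher in F/A. The replicated experiment called 21 of the 23 higher in F/A, 13 in all refits, and none in L-Pro/LIF. Insig1, Stard4 and Hsd17b7, a regulator, a carrier and an enzyme of sterols, were the 3 past 2-fold, at -1.07, -1.11 and -1.17. Of 13 fatty acid genes, 4 were at least 2-fold higher in F/A, the desaturases Scd2, Scd1, Fads1 and Fads2, and none in L-Pro, and 10 were called higher in F/A in the replicated experiment, 6 of them in all refits. Scd2 was at 668 CPM at day 0, 558 in L-Pro, 1419 in F/A day 3 and 2502 in F/A day 5. For Scd2 the log2 ratio was -2.16 (-2.19 to -2.14), and the replicated value was -2.11 (SE 0.34, edgeR adjusted p = 0.0052). Fasn, the synthase itself, was within 2-fold in double-positive cells at -0.13 and at -1.22 (SE 0.15, edgeR adjusted p = 0.0013) in the replicated experiment.

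Hypoxia and glycolysis genes lay mostly on the F/A side in double-positive cells and on the L-Pro/LIF side in the replicated experiment. Of 26 members, 23 had a ratio below 0 in double-positive cells, 8 were at least 2-fold higher in F/A and 1 in L-Pro, and the median was -0.58. In the replicated experiment the median was 0.65, and 14 were called toward L-Pro/LIF and 2 toward F/A, of which 5 and 1 held in all refits. Bnip3, a hypoxia-induced mitophagy receptor, was at 138 CPM at day 0, 12.3 in L-Pro, 91.8 in F/A day 3 and 63.9 in F/A day 5, so L-Pro was the lowest, with a log2 ratio of -2.38 (-2.53 to -2.24). In the replicated experiment it was at 139 and 98.3 CPM in L-Pro/LIF and 44.8 and 57.8 in F/A, with no overlap, a log2 fold change of 1.20 (SE 0.20, edgeR adjusted p = 0.00547). Pgk1, a glycolytic kinase with 35.7% of its replicated-experiment fragments unique to it and so an uncertain value, was at 469.8 CPM in L-Pro and 1166 in F/A, and at 1544 and 1346 and 623 and 873 in the replicated experiment. The replicated log2 fold change of Pgk1 was 0.95 (SE 0.17, edgeR adjusted p = 0.00798), called in 3 of 4 refits with an adjusted p of up to 0.0806. Ndrg1, a hypoxia-induced protein, and Vegfa, the angiogenic ligand, were the 2 called higher in F/A, with log2 ratios of -2.56 and -1.89 in double-positive cells and log2 fold changes of -2.30 and -1.07 in the replicated experiment, where the Vegfa call held in 1 of 4 refits and was lost with the replicate number as a block (edgeR adjusted p = 0.0506). Without F/A replicate 2 the value of Vegfa was -0.42. Pfkp, a phosphofructokinase, was higher in L-Pro in both, at 1.08 and 1.56. The abundant glycolytic genes Pkm and Eno1 were within 2-fold, at -0.26 and -0.25. The difference between the experiments was not tested, and they differ in the cells taken, the extraction and the processing together.

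**Figure D4:**
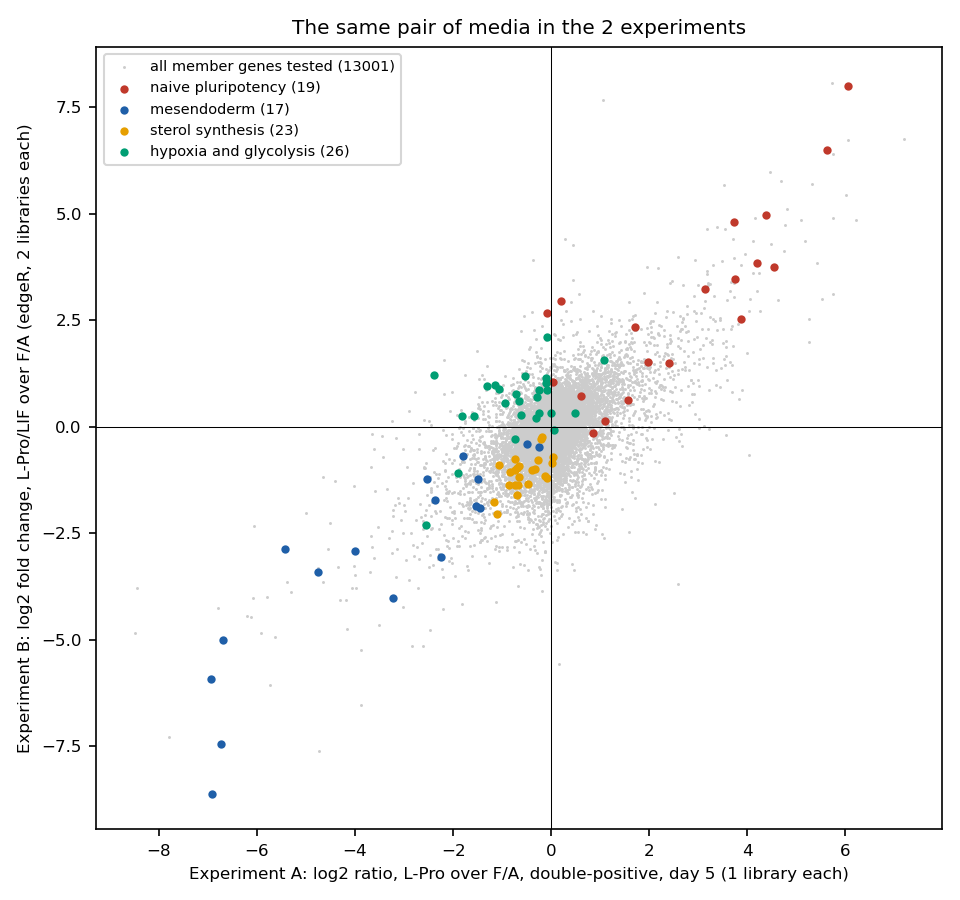
Log2 ratio of L-Pro over F/A in double-positive cells (horizontal, 1 library each) against the log2 fold change of L-Pro/LIF over F/A in the replicated experiment (vertical, edgeR, 2 libraries each) for 13001 genes, with 4 lists coloured. Most naive genes lie at the upper right, with Klf4 and Nanog near 0 on the horizontal axis, mesendoderm genes lie at the lower left, sterol genes lie lower on the vertical axis than on the horizontal one, and most hypoxia and glycolysis genes lie at the upper left.

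Among abundant genes outside these themes, the largest ratios toward F/A included the peptide ligand apelin and its receptor. Apln was at 0.593 CPM at day 0, 2.67 in L-Pro, 5.84 in F/A day 3 and 187 in F/A day 5, and Aplnr, a G protein-coupled receptor of early mesoderm, at 0, 0.205, 0.218 and 45.2. Both were alone high in F/A day 5, with log2 ratios of -6.13 (-6.42 to -5.85) and -7.78 (-9.00 to -6.80). Their replicated values were -4.47 (SE 0.20, edgeR adjusted p = 7.70e-06) and -7.28 (SE 0.35, edgeR adjusted p = 0.000297). Sprr2a3, a cornified envelope gene of a repeated family, had 4 counts in L-Pro and 1193 in F/A, and 68.5% of its fragments in the replicated experiment were unique to it. Ptgs1, a prostaglandin synthase, Scn9a, a sodium channel, and Plxna2, a semaphorin receptor, had log2 ratios of -4.51, -4.31 and -3.99. Toward L-Pro, Folr1, a folate receptor, was at 48.2 CPM at day 0, 44.7 in L-Pro, 23.7 in F/A day 3 and 3.04 in F/A day 5 (log2 ratio 3.88). Prph, a neuronal intermediate filament, and Stmn4, a tubulin-binding protein, had log2 ratios of 3.69 and 3.89, and Stmn4 was not called in the replicated experiment (edgeR adjusted p = 0.246). The zinc finger genes Zfp980 and Zfp600 had log2 ratios of 4.48 and 5.41, but their values are uncertain because near-identical copies exist: 35.5% and 24.7% of their fragments were unique in the replicated experiment.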

How the data were processed

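RNA-seq of mouse dual reporter embryonic stem cells was used in 4 double-positive libraries (1 each) and 10 libraries of the replicated experiment (2 each in 5 media). The double-positive files hold raw counts per gene, deposited by the authors, on the mm9 (NCBIM37) build. The submitters' processing notes name TopHat2 2.0.13, HTSeq 0.6.1p1, Bowtie, CASAVA and DESeq, and which of them made which file is not given there. Per the file headers, the replicated files hold the authors' expression estimate per gene as a natural log in FPKM units, an effective gene length, counts of unique hits and the total of mapped fragments. Estimated counts were computed here from the first, the length and that total, and summed to 98.7 to 99.5% of the mapped fragments. Not used were 8 further columns. Whether counting used strand is not given in the sources used here, so overlapping and antisense genes cannot be told apart.

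Gene IDs were matched to symbols in GENCODE vM21 (GRCm38) for 32897 of 37620 genes, so no gene positions are given except for RefSeq promoters and microRNAs. CPM used edgeR 4.0.16 TMM factors (R 4.3.3) over the 4 libraries, and intervals the exact binomial method at 95%. Log2 ratios were taken from these values without a prior count. A prior count of 0.5 was used only to rank genes when the highest and lowest ratios were picked. A gene at 0 is set against a floor of 3 counts. CPM is not per length and is not compared between genes. The replicated experiment was fitted with edgeR's quasi-likelihood test on rounded estimated counts of all 10 libraries, without replicate block, with Benjamini-Hochberg adjustment, and a call is an adjusted p under 0.05. DESeq2 1.42.0 was an alternative, and limma 3.58.1 is loaded by edgeR. The fit was checked on simulated data. The 2 experiments were never pooled: they differ in population, extraction (Trizol and RNeasy) and processing.

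The genes described and the 39 lists (627 genes, 16 without an ID) were chosen with earlier results of these data known. Named genes were 10 markers, the 12 highest and 12 lowest ratios among genes of at least 20 CPM, and from each list up to 4 past 2-fold and up to 2 within it, 187 in all. Others named were chosen after their values were seen, among them Mixl1, Lefty1, Socs3, Stat3, Smad7, Sp5, Axin2, Tagln, Sox17, Pgk1, Pfkp, Pycrl, Prodh, Larp7, Fkbp5, Tdrkh and Stag3.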

Additional observations from a re-analysis of the deposited data

Results flagged for a closer look

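Of the genes at least 2-fold apart in double-positive cells, 214 had the opposite sign in the replicated experiment. These were 136 (14.8%) of the 921 tested genes higher in L-Pro and 78 (11.2%) of the 695 higher in F/A. Among genes within 2-fold, 48.5% had a replicated value below 0 and 51.5% above it. In 84 of the 214 the replicated libraries did not overlap. The share without overlap over all genes was not counted. With 2 libraries a medium, groups can separate without a difference, so the 84 are not a count of reversals. Values are given for 24 of the 84, those that were called in the replicated experiment or are among the named genes. In the 24 genes both L-Pro/LIF libraries of the replicated experiment lay on the other side of the F/A libraries from the side seen in double-positive cells, where the gene was at least 2-fold apart, so the direction of L-Pro over F/A differed between the experiments. The difference was not tested for any of them, since the double-positive pair has 1 library a group, and 22 of the 24 were called by edgeR's quasi-likelihood test in the replicated experiment. The 22 were 8 (0.869%) of the 921 tested genes higher in L-Pro and 14 (2.01%) of the 695 higher in F/A. Of all described genes tested, 12.3% were called toward F/A and 11.7% toward L-Pro/LIF.

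Among the 24 were Pgk1, Tpi1, Pfkl, Bnip3 and P4ha1 of the hypoxia and glycolysis list. Named genes, many of them picked from the lists, could enter the 24 without a call, so their number is not read as a share. These list members and the metabolic genes Pgm1, Ak4 and Mgarp were lower in L-Pro in double-positive cells. The replicated log2 fold changes were 0.95 for Pgk1, 0.99 for Tpi1, 0.89 for Pfkl, 0.85 for Pgm1, 0.59 for Ak4, 1.77 for Mgarp, 1.20 for Bnip3 and 0.25 for P4ha1, against double-positive log2 ratios of -1.31, -1.15, -1.07, -1.33, -1.14, -1.51, -2.38 and -1.81. P4ha1 was not called, and of these genes only Mgarp and Bnip3 kept their call in all 4 refits that leave out 1 library. No other gene of the 24 did.

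Psmb8 and Tap2, members of the antigen presentation list, Psme2, a proteasome activator subunit, and Oasl2 and Parp12, both interferon-inducible, were also lower in double-positive L-Pro cells and higher in L-Pro/LIF. The replicated values were 1.13 for Psmb8, 1.22 for Tap2, 0.86 for Psme2, 1.56 for Oasl2 and 0.71 for Parp12, and the double-positive ratios were -1.38, -1.41, -1.05, -2.20 and -1.47. Enpp2, which makes lysophosphatidic acid, and Clic5 had replicated values of 0.87 and 1.22 and double-positive ratios of -1.01 and -1.76.

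The other 9 genes were higher in double-positive L-Pro cells and lower in L-Pro/LIF. Ccn3, a matricellular protein, had a replicated value of -3.68 and a double-positive ratio of 2.58. For Epas1, the hypoxia factor HIF-2 alpha, they were -1.56 and 2.51, for Phlda1 -1.53 and 1.65, and for the netrin receptor Unc5c -1.68 and 1.09. Kdr, the VEGF receptor, had -1.04, which was not called, and 1.63. For Runx1t1, whose call was lost with the replicate number as a block (edgeR adjusted p = 0.0520), they were -1.13 and 1.02, for Nav1 -1.23 and 1.09, for Rin1 -0.70 and 1.08, and for Gm16503, a predicted gene, -2.62 and 1.08. Without F/A replicate 1 the replicated values of Ccn3, Epas1 and Gm16503 were -2.51, -0.82 and -1.05, and without L-Pro/LIF replicate 1 that of Kdr was -0.57.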

How the results depend on the processing

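In double-positive cells the 1647 genes past 2-fold became 565 with a mean of at least 10 CPM, 5574 with no filter, 484 at 4-fold and 1073 where the whole counting interval had to lie beyond 2-fold, as each setting's own construction gives. Scaling by total counts gave 1642 genes (889 higher in L-Pro and 753 in F/A) and DESeq2's size factors 1644 (900 and 744), and they shifted all ratios by a median of -0.03 and -0.02. In the lists, 18 of 38 counts past 2-fold moved by over 1.5 times at 10 CPM. The authors' normalized table was not run as a scaling, because the heading of its second value column carries 2 sample names.

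In the replicated experiment the 3529 calls became 729 with the 4 libraries alone, where fewer samples estimate the spread, and 752 to 6296 without 1 library: 752 without L-Pro/LIF replicate 1, 1183 without L-Pro/LIF replicate 2, 1598 without F/A replicate 1, the shallow library, and 6296 without F/A replicate 2. There the lone library of a medium is assumed to vary like the other media. The cause of this range was not tested. DESeq2 called 4116 genes, unique hits 4313, no filter on low counts 3851, and the replicate number as a block 3235. Replicates share only a number: deviations of same-numbered libraries had a Pearson correlation of 0.241 over 1 pair of groups, and with the block 5 of 187 named genes lost and 2 gained a call. No named gene reversed its direction as a call under these settings. With 1 library a medium in double-positive cells, 20 counts or fewer leave wide intervals, as for Cer1, Lhx1 and Dppa3 in their lower library.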

Other observations

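Imprinted genes lay on both sides. Of 17 members, 6 were at least 2-fold higher in L-Pro and 1 in F/A, and the replicated experiment called 3 each way, 1 each way in all refits that leave out 1 library. Peg10, a retrotransposon-derived placental gene, was at 140.1 CPM at day 0, 1325 in L-Pro, 239 in F/A day 3 and 393 in F/A day 5. It was not called in the replicated experiment (log2 fold change -0.67, SE 0.43, edgeR adjusted p = 0.280). Phlda2, a growth restrainer of the placenta, had a log2 ratio of 3.25 (3.01 to 3.49) and a replicated value of 3.36 (SE 0.16, edgeR adjusted p = 9.81e-06). Peg3, a zinc finger gene, was the 1 gene higher in F/A, at 296 CPM in L-Pro and 940.0 in F/A, and its replicated value was -1.84 (SE 0.22, edgeR adjusted p = 0.00139). In the cell cycle list 2 of 16 genes were higher in each medium. Ccnd2, a G1 cyclin, was at 8.27 CPM at day 0, 15.7 in L-Pro, 111 in F/A day 3 and 118 in F/A day 5, so L-Pro lay near day 0 and far from both F/A libraries. Its replicated value was -3.60 (SE 0.43, edgeR adjusted p = 0.00135), or -4.30 without L-Pro/LIF replicate 2. The proliferation marker Mki67 was level, at 496 and 551 CPM. Of 19 p53 targets 17 lay within 2-fold, as did 87.5% of all described genes, and the cell cycle inhibitor Cdkn1a had a log2 ratio of -1.13 (-1.19 to -1.07).

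In stress and housekeeping lists the share within 2-fold was set beside the 87.5% of all described genes. None of 9 iron genes and none of 12 genes of the mitochondrial genome passed 2-fold, and of 8 metallothionein and zinc genes 1 was higher in L-Pro. Among 20 antioxidant and selenoprotein genes 3 were at least 2-fold higher in L-Pro, namely Selenow, Gpx3 and Gpx1, and Srxn1 was higher in F/A. Of the 20 ratios 7 lay above 0 and 13 below it, with a median of -0.14, and Txnrd1 was at -0.19. The replicated experiment called 4 members toward L-Pro/LIF and 1 toward F/A, none in all refits. Gpx3 was not called there, at 0.04. Selenow was at 36.7 CPM at day 0, 86.5 in L-Pro, 25.8 in F/A day 3 and 26.8 in F/A day 5, and it was not called in the replicated experiment (edgeR adjusted p = 0.0751). Of 12 glucocorticoid response genes 2 were higher in L-Pro and 1 in F/A. The 2 were Angptl4 and Pdk4, lipid and fuel genes also induced by fatty acids, at log2 ratios of 3.39 (2.63 to 4.25) and 2.59 (1.87 to 3.39), and Fkbp5, a standard readout of the receptor, was at -0.56. Of 9 antigen presentation genes 2 were higher in F/A in double-positive cells, Tap2 and Psmb8, and the class I gene H2-K1 was level at 80.6 and 79.3 CPM. The list lay, in the replicated experiment, toward L-Pro/LIF, with a median of 0.56 and 5 of 9 called, none in all refits, and none called toward F/A. H2-K1 was called there at 0.59 (SE 0.18, edgeR adjusted p = 0.0454), in 1 of 4 refits and not with the replicate number as a block (edgeR adjusted p = 0.0505).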
